A study of Mus musculus with 9 samples.

Results

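The homeostatic microglia markers described here are 10 genes: Csf1r, Tmem119, Siglech, Fcrls, Olfml3, Sall1, Fcer1g, Cx3cr1, P2ry12 and Aif1. All probes carrying one of these symbols, as annotated or as updated through RefSeq synonyms, were taken with no filter on missing values, which gave 12 probes of 29922. Csf1r and Sall1 had 2 probes each and the other 8 genes had 1, and the probe of Fcrls was annotated under its older name Msr2. A single symbol was given for 21020 probes of the series, and these named 16637 genes after the update.

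Microglia are the resident macrophages of the brain. They depend on signals through the receptor Csf1r for survival, and in the healthy brain they keep a set of sensing receptors and lineage genes that other tissue macrophages largely lack. In mouse models of amyloid disease this homeostatic set is known to decline in microglia that gather at plaques, while a second set that includes Apoe and lysosomal genes rises.

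The study set hippocampi of 3xTG mice against those of wild-type (WT) mice on 9 two-colour arrays, and set WT mice of 12 months against WT mice of 3 months. The 4 groups were 3xTG at 12 months, 3xTG at 3 months, WT at 12 months and WT at 3 months, with 2 female mice in each. The 3xTG mice carry mutant APP and tau transgenes, given in the labels as Tg (APPSwe,tauP201L) 1Lfa, and the promoter of the transgenes is not given there. WT mice are labelled 129SV with C57BL6. RNA came from a single hippocampus of each mouse and was linearly amplified. Each comparison had 3 arrays, and arrays shared mice. For 3xTG over WT at 12 months, arrays 1 and 2 carried the same 3xTG mouse and arrays 1 and 3 the same WT mouse. At 3 months, arrays 2 and 3 shared the 3xTG mouse and arrays 1 and 2 the WT mouse. For WT at 12 over 3 months, arrays 1 and 3 shared the older mouse and arrays 2 and 3 the younger one. Both WT mice of 12 months entered the genotype ratio as its denominator and the ageing ratio as its numerator, and both WT mice of 3 months entered the other 2 comparisons as the denominator. The comparisons are therefore not independent, and their values are set side by side below without a measure of likeness.

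The values are log2 ratios, read from the labels as 3xTG over WT or as 12 over 3 months, and each is given relative to the median of its array. A value of 0 thus means a ratio equal to that of the array's median probe. No value between -0.5 and 0.5 was listed before centring, so a missing value can be a small ratio or a spot left out for another reason. Array medians ran from -1.71 to 2.34, and each array listed 45.7 to 54.1% of the probes. A ratio holds no level, so whether a marker was above background in these samples could not be judged. In whole hippocampus, fewer microglia and less RNA per microglial cell cannot be told apart.

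Of the 108 possible values of the 12 marker probes, 62 were listed, or 57.4%, against 48.6% of all values in the table. A marker probe was listed on a median of 5 arrays, and the range was 1 to 8; the median over all probes was 4. The probes of Tmem119 and Olfml3 were listed on 8 arrays, those of Siglech and Fcrls on 7, and that of Fcer1g on 6. Both Csf1r probes and the second Sall1 probe were listed on 5 arrays and the first Sall1 probe on 4. Cx3cr1 and P2ry12 were listed on 3 arrays, none of them for 3xTG over WT at 3 months, and Aif1 on 1 array. The markers with the most complete record are therefore Tmem119, Olfml3, Siglech, Fcrls and Fcer1g, and these are the 5 probes that entered the model across all probes, which asked for 2 or 3 listed arrays in every comparison. They entered through their record of listed values, so their counts do not stand for all 10 genes.

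**Figure D1:**
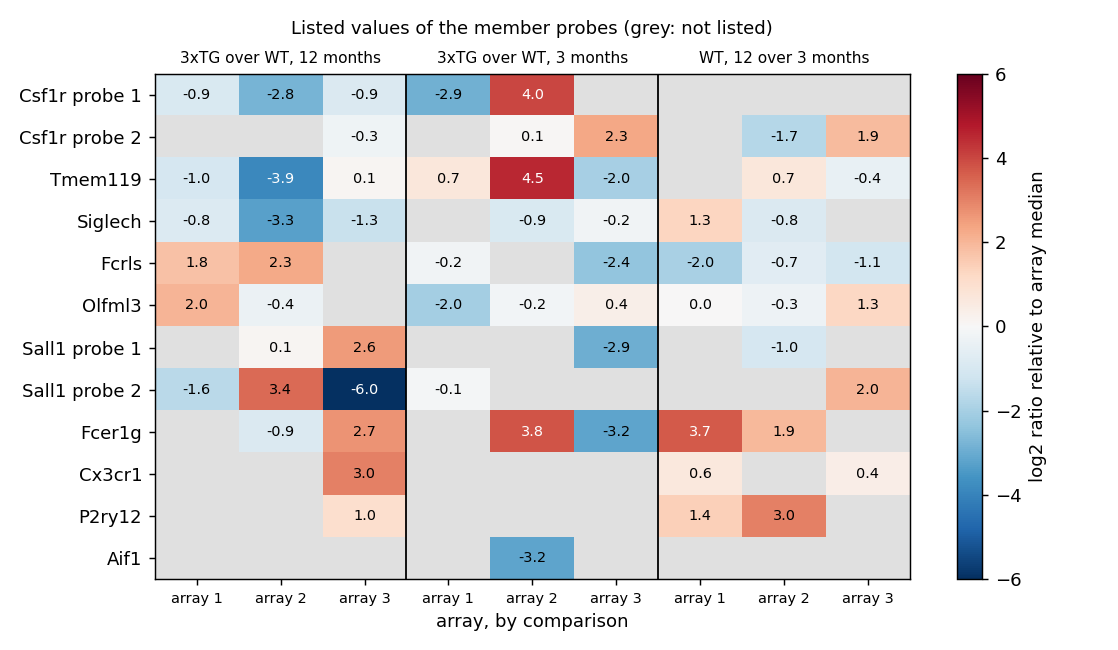
Listed log2 ratios of the 12 marker probes (rows) on the 9 arrays (columns, grouped by comparison), relative to the array median, with blue below and red above it and grey where no value was listed. The 62 listed values leave Aif1 with 1 value and Cx3cr1 and P2ry12 with 3 each, while Tmem119 and Olfml3 have 8.

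No marker passed the test in any comparison. In limma's moderated test with Benjamini-Hochberg adjustment over 3644 probes, 0 of the 5 tested markers were called for 3xTG over WT at 12 months, for 3xTG over WT at 3 months or for WT at 12 over 3 months, against a background of 0% of all probes called in each. At an unadjusted p under 0.05 the same fits held 607, 492 and 431 of the 3644 probes, and 0 of the 5 markers in each. The model allowed for mice shared between arrays and for dye. The widths of the 95% intervals below, several log2 units for each marker, show the size of change that 3 arrays could not resolve. The contrast of 3xTG at 12 months over 3xTG at 3 months, derived through the WT mice, also had 0% of probes called, and the adjusted p of the 5 markers ran from 0.978 to 0.998.

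Csf1r is the receptor for the growth factors Csf1 and Il34 and is needed for microglial survival. For 3xTG over WT at 12 months its first probe had log2 ratios of -0.92, -2.81 and -0.87 on the 3 arrays, with a mean of -1.53 ± 1.11 (SD, n = 3). All 3 values lay below the array median. The second probe had a single value there, -0.28 on the third array. For 3xTG over WT at 3 months the first probe had -2.89 on array 1 and 4.00 on array 2, and the second had 0.06 on array 2 and 2.33 on array 3. On array 2, where both were listed, the probes of this one gene differed by 3.95. For WT at 12 over 3 months the second probe alone was listed, at -1.71 and 1.91, on both sides of the median. At 3 months the means were 0.56 ± 4.87 for the first probe and 1.19 ± 1.60 for the second, and with age the mean of the second was 0.10 ± 2.56 (SD, n = 2 each). Each of these means was smaller than its SD.

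Csf1r did not meet the rule for the main model. Fitted with no filter on missing values, its first probe had a log2 ratio of -1.60 ± 2.06 (SE) for 3xTG over WT at 12 months, with an adjusted p of 0.845 in limma.

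Tmem119 is a transmembrane protein used to tell microglia from infiltrating macrophages. It had log2 ratios of -1.0, -3.89 and 0.12 for 3xTG over WT at 12 months. At 3 months it had 0.67, 4.54 and -2.0. The ageing ratios in WT were 0.68 and -0.42, with no value on array 1. The means were -1.59 ± 2.07 at 12 months and 1.07 ± 3.29 at 3 months (SD, n = 3 each), so the arrays of one comparison differed by more than the means. The 4.54 and the -2.0 came from 2 arrays that carried RNA of the same 3xTG mouse, against different WT mice and with opposite dyes. The fitted log2 ratios were -1.66 (95% interval -6.08 to 2.75) at 12 months and 0.21 (-4.23 to 4.65) at 3 months, with adjusted p of 0.694 and 0.978 in limma.

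Siglech, a sialic acid-binding lectin of microglia that signals through an ITAM adaptor, was the marker with the lowest mean at 12 months. Its log2 ratios for 3xTG over WT were -0.83, -3.26 and -1.34, all below the array median, with a mean of -1.81 ± 1.28 (SD, n = 3). At 3 months the 2 listed values were -0.90 and -0.21, also below it, but before centring they were -1.74 and 0.76, on both sides of 0. The ageing values in WT were 1.31 and -0.85, on both sides. The fitted log2 ratio at 12 months was -1.96 ± 0.99 (SE), with a 95% interval of -4.35 to 0.42, an unadjusted p of 0.0921 and an adjusted p of 0.363 in limma, which missed the threshold of 0.05. The arrays are numbered in the labels as 57 to 66 and as 86 to 91, and array 1 at 12 months belongs to the lower numbers while arrays 2 and 3 belong to the higher. The value within the lower numbers was thus -0.83, and those within the higher were -3.26 and -1.34. With these numbers as a block the fitted ratio was -0.21, with an adjusted p of 0.960. Without centring it was -3.13 (adjusted p of 0.473), and against abundant transcripts -4.10 (adjusted p of 0.170). At 3 months the fitted ratio was -0.55 (95% interval -3.39 to 2.28). With the array numbers as a block it was 1.53, with the sign turned.

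Fcrls, a mouse Fc receptor-like scavenger molecule found on microglia, stood on opposite sides of the array median at the 2 ages. For 3xTG over WT at 12 months it had 1.75 and 2.27 on arrays 1 and 2, both above the array median and both from the same 3xTG mouse. At 3 months it had -0.20 on array 1 and -2.36 on array 3, both below it. The means were 2.01 ± 0.37 at 12 months and -1.28 ± 1.52 at 3 months (SD, n = 2 each). On array 3 at 12 months no value was listed. If a ratio was left out for its size alone, it lies between 1.21 and 2.21 after centring on that array, above the median, and between 0.34 and 1.34 on array 2 at 3 months, where Fcrls was also not listed, which is above the median too. Before centring the 3-month values were 0.64 and -1.39, on both sides of 0. Between 12 and 3 months in WT, Fcrls had -1.96, -0.66 and -1.08, all below the median, with a mean of -1.23 ± 0.66 (SD, n = 3).

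The test of the difference did not separate the ages. The fitted log2 ratio of genotype at 12 months minus that at 3 months was 2.57 ± 1.36 (SE) for Fcrls, with a 95% interval of -0.68 to 5.83, an unadjusted p of 0.103 and an adjusted p of 0.730 in limma. Over all 3644 probes 0% were called for that contrast. The fitted ratio of Fcrls was 1.29 (95% interval -1.25 to 3.83) for 3xTG over WT at 12 months and -1.37 (-3.34 to 0.61) for WT at 12 over 3 months, with adjusted p of 0.575 and 0.622. Each of these directions rests in part on the centring. Set against abundant transcripts (ribosomal proteins, respiratory complexes, glycolysis and proteasome) the fitted ratio at 12 months was -1.11, and without centring it was 0.25. The ageing ratio was 0.46 without centring and -0.72 against abundant transcripts.

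**Figure D2:**
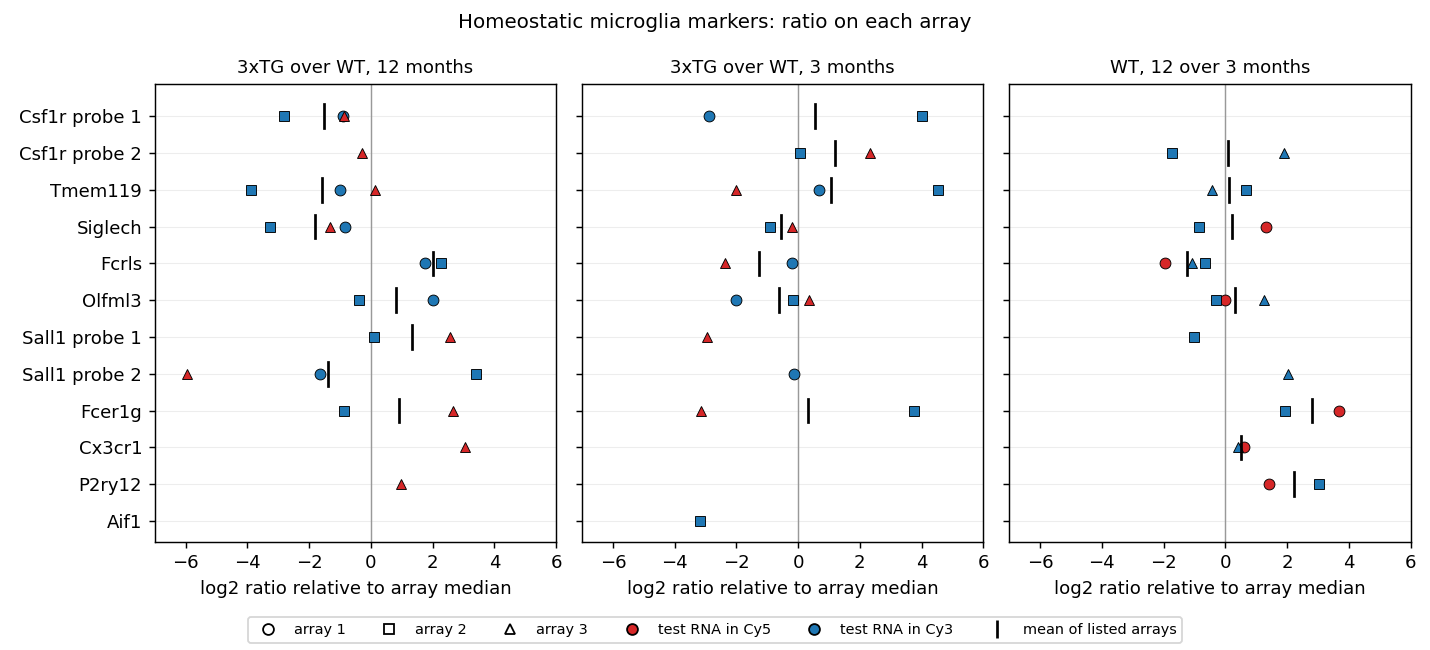
Log2 ratio of each marker probe (rows) on each array relative to the array median, for the 3 comparisons (panels), with symbol shape for the array, colour for the dye of the numerator RNA (labelled test RNA) and a black bar for the mean where more than 1 array was listed. Siglech and the first Csf1r probe lie left of 0 on all 3 arrays for 3xTG over WT at 12 months, Fcrls lies right of 0 at 12 months and left of it at 3 months, and the second Sall1 probe spans -5.96 to 3.41 at 12 months.

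Cx3cr1 is the receptor for the neuronal chemokine Cx3cl1, and P2ry12 is the ADP receptor that directs microglial processes to injury. Neither was listed for 3xTG over WT at 3 months. At 12 months each had a single value, both on array 3: 3.05 for Cx3cr1 and 0.99 for P2ry12. In WT ageing, Cx3cr1 had 0.62 and 0.42, with a mean of 0.52 ± 0.14, and P2ry12 had 1.43 and 3.04, with a mean of 2.23 ± 1.14 (SD, n = 2 each). The 6 listed values of these receptors lay above the array median, which as many listed values of an array exceed as fall below. By gene mean, 8170 of 14765 genes lay above it at 12 months and 7278 of 14887 with age. If left out for size alone, the missing ageing ratio of Cx3cr1 on array 2 lies between -2.835 and -1.835. That of P2ry12 on array 3 lies between -2.455 and -1.455, and both are below the median. On arrays 1 and 2 at 12 months such a ratio would lie above it. Neither probe met the rule for the main model, and with 3 listed values each they left no residual degrees of freedom of their own, so no test is given. Before centring, the P2ry12 value at 12 months was -0.72, so its sign came from the centring.

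Fcer1g encodes the ITAM-bearing common chain of Fc receptors, which carries their signal into the cell. For 3xTG over WT it had -0.86 and 2.67 at 12 months and 3.77 and -3.16 at 3 months. In both comparisons the 2 arrays fell on opposite sides of the median. In WT ageing it had 3.69 and 1.94, with a mean of 2.82 ± 1.24 (SD, n = 2), both above it. On array 3 it was not listed. A ratio left out there for its size alone lies between -2.455 and -1.455 after centring, below the median. The fitted ageing ratio had a 95% interval of -2.03 to 7.66 and an adjusted p of 0.699 in limma. The 2 ageing arrays that listed it shared no mouse.

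Olfml3 is a secreted protein of the olfactomedin-like family that microglia express in mouse brain. In 3xTG over WT it had 2.02 and -0.37 at 12 months and -2.03, -0.17 and 0.36 at 3 months. Its ageing ratios in WT were 0.01, -0.29 and 1.25. The means were 0.82 ± 1.69 (SD, n = 2) at 12 months, -0.61 ± 1.25 (SD, n = 3) at 3 months and 0.32 ± 0.82 (SD, n = 3) with age. Each of the 3 comparisons held arrays on both sides of the median, and each mean was smaller than its SD.

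Sall1 is a transcription factor that holds microglia in their lineage state, and Aif1 encodes the actin-binding protein known as Iba1, a common stain for microglia. The first Sall1 probe had 0.10 and 2.55 for 3xTG over WT at 12 months, -2.95 on 1 array at 3 months and -1.03 on 1 array with age in WT. The second had -1.63, 3.41 and -5.96 at 12 months, -0.14 on 1 array at 3 months and 2.03 on 1 array with age. On array 3 at 12 months the 2 probes stood at 2.55 and -5.96, a difference of 8.51, and on array 2 they differed by 3.31. No direction for Sall1 can be read from these probes. Aif1 had its only value for 3xTG over WT at 3 months, -3.17 on array 2.

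Disagreement between probes of a gene was not peculiar to the markers. Over 6341 cases in which both probes of a gene with exactly 2 probes were listed on the same array, the median absolute difference was 1.92 in log2 units, and 46.4% of the pairs had opposite signs. Of the 4 such cases among the markers, 3 differed by more than that median and 1, Csf1r on array 3 at 12 months, differed by 0.59.

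Agreement of sign over arrays was compared with that of all probes. In 3xTG over WT at 12 months, 4 marker probes were listed on all 3 arrays. Of these 2, Siglech and the first Csf1r probe, lay below the array median on each, against 20.3% of all probes listed on all 3 arrays, and 0 lay above it on each, against 29.7%. At 3 months 2 marker probes were listed on all 3 arrays, and 0 lay below it on each (20.8% of all probes) and 0 above (30.9%). In WT ageing 1 of 2 such probes, Fcrls, lay below it on each, against 22.2%, and 0 above, against 16.4%. In the deposited values, before centring, 3 of the 4 probes at 12 months lay below 0 on all 3 arrays (Csf1r probe 1, Tmem119 and Siglech), against 37.9% of all probes. Before centring, the ageing values of Fcrls were -0.55, 1.68 and 0.87, on both sides of 0, and those of Olfml3 were 1.42, 2.05 and 3.21, all above it. The medians of these arrays were themselves 1.415, 2.335 and 1.955. By gene mean, 2354 of 14887 genes lay below 0 in the deposited ageing values. These counts rest on 4 probes at most, and arrays share mice.

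**Figure D3:**
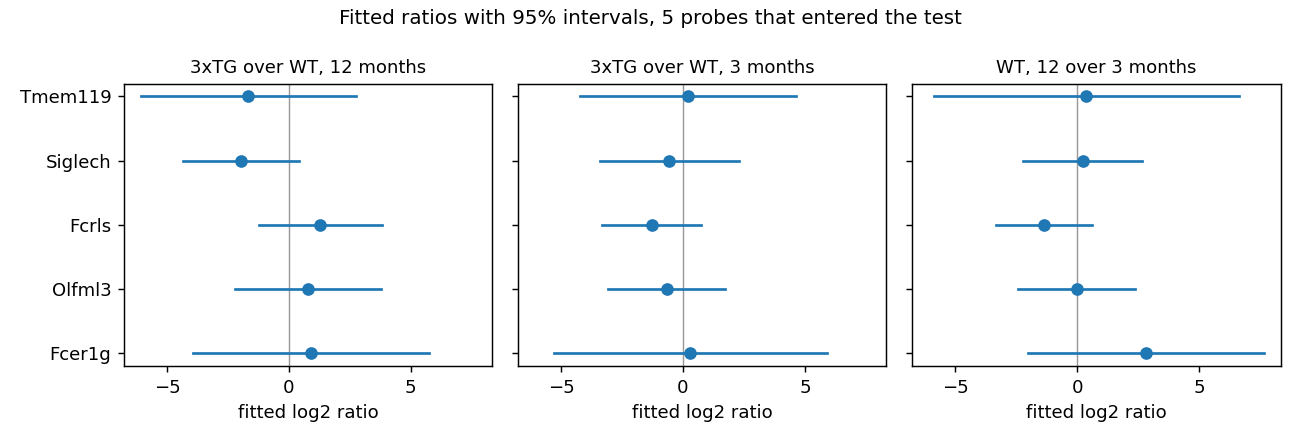
Fitted log2 ratios (points) with 95% intervals (bars) of the 5 marker probes that entered the limma model, for the 3 comparisons (panels). All 15 intervals include 0, and the nearest to leaving it out is Siglech at 12 months, which ends at 0.42.

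At 12 months the sign of the marker median changed with the centring, but the median stood above that of all genes under each. That difference from all genes was not tested. With gene means over the listed arrays, 9 genes had a value for 3xTG over WT at 12 months, 5 above and 4 below the array median. Over all genes 8170 of 14765 lay above. The median marker gene was at 0.82, against 0.22 over all genes. In the deposited values this median was -0.72, against -0.95 over all genes, and set against abundant transcripts it was -1.29, against -1.94. At 3 months 8 genes had a value, 3 above and 5 below, against 7120 of 14476 above over all genes. Their median was -0.58, against -0.03 over all genes. It was -0.33 in the deposited values and -1.54 against abundant transcripts, where all genes had 0.31 and -0.92. For the ageing ratio 9 genes had a value, 8 above and Fcrls below, against 7278 of 14887 above over all genes. The marker median was 0.32, against -0.04. This median was 2.24 in the deposited values and 1.06 against abundant transcripts, where all genes had 1.88 and 0.69. With unlisted values set to a ratio of 0 before centring it was -0.46. The array-level medians of the listed marker genes were -0.88, -0.86 and 0.12 on the 3 arrays at 12 months, -0.20, 0.93 and -2.0 at 3 months, and 0.97, -0.47 and 0.84 with age, so in every comparison 1 array stood on the other side of 0. Without array 3 the marker median at 12 months was -0.86, and without array 1 it was 0.026.

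**Figure D4:**
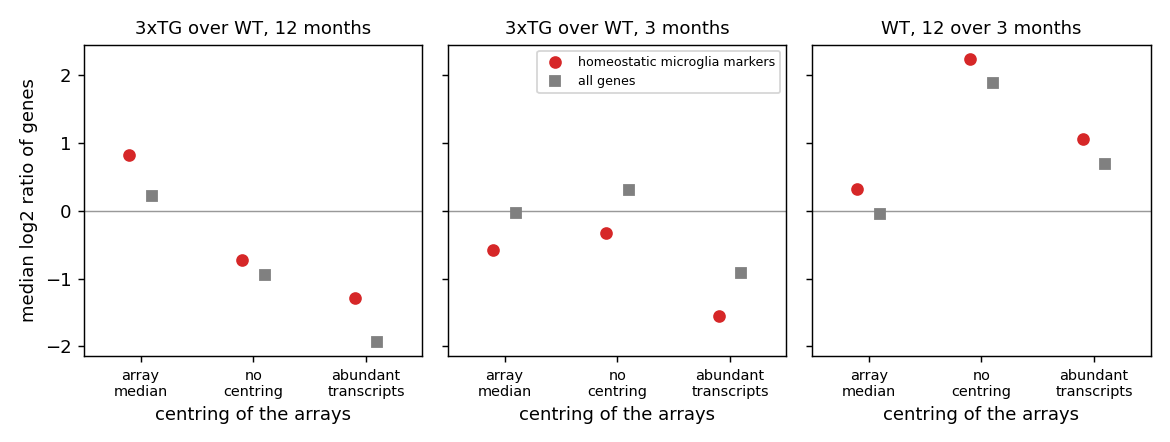
Median log2 ratio over the marker genes (red circles) and over all genes (grey squares) under 3 centrings of the arrays (x axis), for the 3 comparisons (panels). At 12 months the marker median moves from 0.82 to -0.72 and -1.29 with the centring and all genes move with it, from 0.22 to -0.95 and -1.94.

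Other genes of the microglial pathways were taken from lists chosen with earlier results of these data known. Their counts stand beside those of all genes. Of these, 8170 of 14765 lay above the array median at 12 months, 7120 of 14476 at 3 months and 7278 of 14887 with age. No gene of these lists passed the adjusted threshold of 0.05 in limma in any comparison, and between 0 and 5 probes of a list entered the model. Among 30 other microglia-enriched genes, 26 had a probe and 23 had a value for 3xTG over WT at 12 months. Of these, 18 lay above the array median and 5 below, with a median of 0.92, against 0.22 over all genes. This median was -0.23 in the deposited values and -1.23 against abundant transcripts, where all genes had -0.95 and -1.94. Mpeg1, a pore-forming protein of macrophages, averaged 3.36 ± 0.01 and Cd53, a leukocyte tetraspanin, 2.13 ± 0.58 (SD, n = 3 each). At 3 months this list held 10 genes above and 12 below, with a median of -0.34. With age in WT it held 9 above and 13 below, with a median of -0.24. In the deposited values these medians were 0.15 and 1.62, where all genes had 0.31 and 1.88. At 12 months 18 of 23 microglia-enriched genes and 5 of 9 homeostatic markers lay above the array median, against 8170 of 14765 over all genes. The list medians were 0.92 and 0.82, and no difference between the lists was tested.

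Of the transcription factors that shape microglia, 10 had a value at 12 months, 3 above and 7 below, with a median of -1.52, against 0.22 over all genes. The median was -2.39 in the deposited values and -3.61 against abundant transcripts, where all genes had -0.95 and -1.94. Mef2c, which is also abundant in neurons, averaged 4.52 ± 0.71 (SD, n = 3), Ikzf1 -0.78 ± 0.77, Mef2a -2.85 ± 3.56 and Cebpa -2.30 ± 2.53 (SD, n = 2 each). The ligands and signalling partners of Csf1r held 2 genes above and 6 below at 12 months, with a median of -0.79. Their median was -2.20 in the deposited values and -2.98 against abundant transcripts, beside the same values of all genes. At 3 months they held 4 above and 6 below.

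Cx3cl1, the ligand of Cx3cr1 that neurons make, had a mean log2 ratio for 3xTG over WT of 1.91 ± 0.74 (SD, n = 2) at 12 months and -1.92 ± 0.40 (SD, n = 3) at 3 months. For WT at 12 over 3 months its mean was -3.32 ± 1.57 (SD, n = 2). Cx3cl1 and 4 genes of its shedding and of Cx3cr1 coupling lay above the array median at 12 months in 5 of 5. Their median was 1.91. It was 1.04 in the deposited values and -0.18 against abundant transcripts, where all genes had -0.95 and -1.94. Purinergic partners of P2ry12 had a median of 1.54 over 7 genes at 12 months, 4 above and 3 below. This median was 0.67 in the deposited values and -0.54 against abundant transcripts, beside the same values of all genes. With age in WT the list held 4 above and 3 below, with a median of 0.51. There Entpd1, the ectoenzyme that removes extracellular ATP and ADP, averaged 2.05 ± 1.02 (SD, n = 3), Nt5e, which makes adenosine from AMP, -0.23 ± 4.19, the adenosine receptor Adora3 2.09 ± 3.29 and the potassium channel Kcnk13 -0.0097 ± 0.19 (SD, n = 2 each). Fc receptors and their ITAM signalling partners lay above the median in 6 of 7 genes at 12 months, with a median of 0.80. With age they lay below it in 7 of 8, with a median of -0.91. In the deposited values these medians were -0.07 and 1.20, where all genes had -0.95 and 1.88. TGF-beta pathway genes, whose signal maintains the homeostatic set, had medians of -0.20 over 9 genes at 12 months and 0.85 over 10 genes at 3 months. The 3-month median was 1.18 in the deposited values and -0.17 against abundant transcripts, where all genes had 0.31 and -0.92.

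The plaque-associated genes of microglia did not lie on one side at 12 months either. They held 10 genes above and 9 below the array median, with a median of 0.69, against 0.22 over all genes. This median was -1.02 in the deposited values and -1.59 against abundant transcripts, where all genes had -0.95 and -1.94. Cd68, a lysosomal protein of phagocytes, averaged 2.28 ± 1.85 and Apoe, a lipid carrier made by astrocytes and by plaque-associated microglia, 3.06 ± 1.09 (SD, n = 3 each). The pattern receptor Clec7a averaged -1.02 ± 0.32 and the lipase Lpl 1.14 ± 0.64 (SD, n = 2 each). At 3 months the list held 9 above and 12 below, and with age in WT 6 above and 15 below. In the deposited ageing values 0 of these 21 lay below 0, beside 2354 of 14887 over all genes. The ageing median of the list was 1.23 there, against 1.88 over all genes. No test of the difference between this list and the homeostatic markers was made.

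Markers of other cell types were counted in the same way, again beside 8170 of 14765 genes above the array median at 12 months. At 12 months astrocyte markers lay above the array median in 9 of 12 genes, with a median of 1.74, and oligodendrocyte markers in 9 of 11, with a median of 1.02. Lymphocyte markers lay below it in 9 of 12, with a median of -1.58, Cd3g among them at -3.78 ± 0.29 (SD, n = 3), and monocyte and granulocyte markers in 4 of 6, with a median of -1.15. Border macrophage markers held 3 above and 4 below, with a median of -0.02, and vessel markers 4 above and 5 below, with a median of -0.35. Neuron markers had a median of -0.13 over 11 genes at 12 months and of -2.03 over 13 genes with age in WT. Against abundant transcripts the medians of astrocyte and oligodendrocyte markers at 12 months were -0.38 and -1.24. Both were then below 0 but above the -1.94 of all genes, which stood at 0.22 relative to the array median. Each of these lists had genes on both sides of the median, every gene with a probe was listed on at least 1 array, and since the values are ratios no marker could be placed at or near 0 in level. The part of cell composition in the marker values was not tested.

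**Figure D5:**
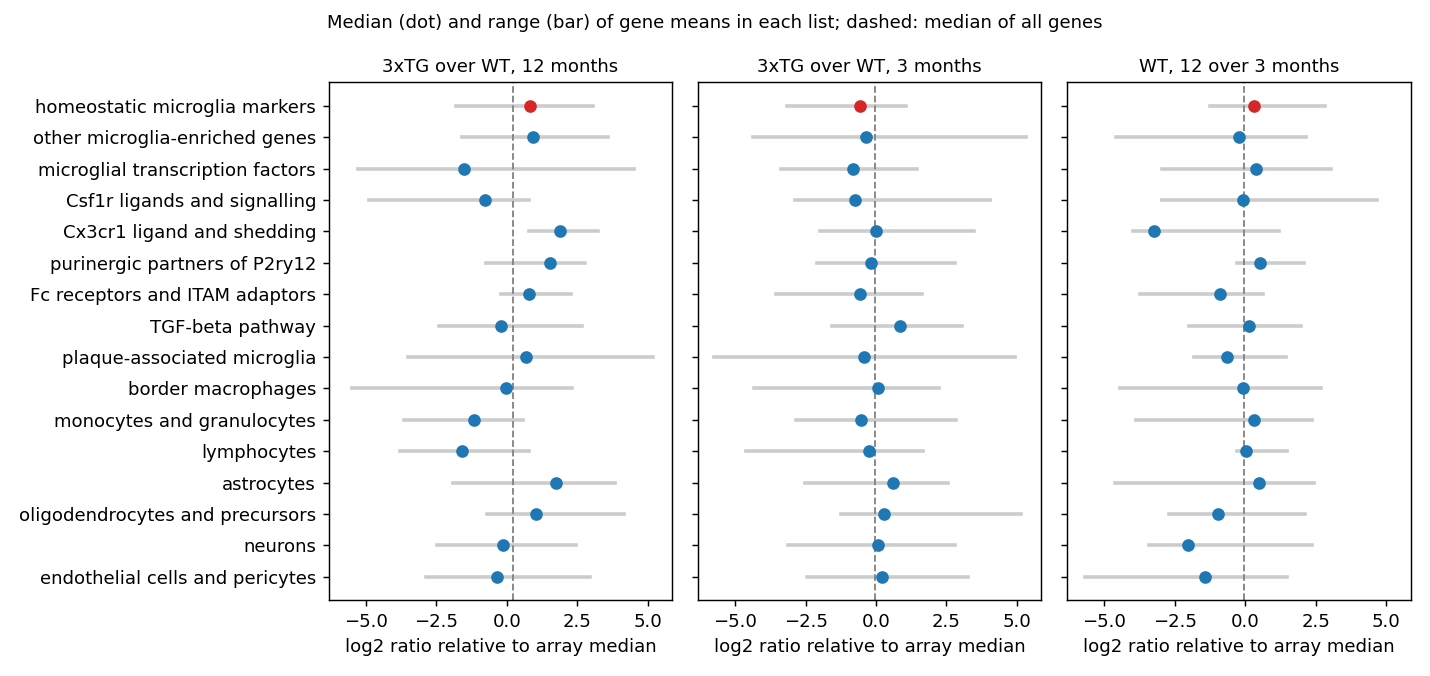
Median (dot) and range (bar) of gene-mean log2 ratios relative to the array median for the homeostatic microglia markers (red) and 15 other lists (blue, rows), for the 3 comparisons (panels), with the median of all genes as a dashed line. At 12 months the homeostatic markers (0.82) and the other microglia-enriched genes (0.92) lie right of the line, and transcription factors (-1.52) and lymphocyte markers (-1.58) left of it.

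Probes whose pattern over arrays was most like that of a marker were sought for the 5 markers listed on at least 6 arrays, by the root mean square difference of centred log2 ratios over the marker's arrays. For Siglech over 7 arrays the nearest of 279 candidate probes were those of Ubtf (0.85), Iqsec1 (0.86) and Spred2 (1.03), against a median of 3.25 over the candidates. For Fcrls over 7 arrays they were Sdc2 (0.93), Mdga2 (1.10) and Acp6 (1.12) of 306, with a median of 2.29. For Tmem119 over 8 arrays they were Nrg2 (1.51), Slfnl1 (1.51) and Nckap1l (1.55) of 182, with a median of 3.46, and for Olfml3 over 8 arrays Kif2a (1.22), Cercam (1.28) and Llph (1.38) of 209, with a median of 2.39. For Fcer1g over 6 arrays they were Lsm12 (0.79), Olfr508 (1.08) and Wdr44 (1.64) of 445, with a median of 3.62. The values share arrays and mice, and the candidates were those listed on all of the marker's arrays.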

How the data were processed

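RNA from hippocampi of 8 mice was compared on 9 two-colour arrays. The values are the log2 ratios the authors deposited for 29922 probes; how those ratios were filtered, background-corrected and normalized, and to which log base, is not given in the sources used here. The scale was taken as log2 and the direction from the labels; within each comparison, dye-swapped arrays correlated at 0.197 to 0.308, and only the labels give the overall sign. The median of an array's listed values was subtracted from each of them, since array medians differed widely. Symbols come from the platform annotation given with the data, updated through RefSeq (GRCm38.p6): 21020 probes had 1 symbol, 0 had several and 8902 had none.

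Probes with 2 or 3 listed arrays in every comparison were fitted by generalised least squares in R 4.3.3 with limma 3.58.1. The model held the 3 comparisons, dye and a covariance for shared mice. The ratio of mouse to array variance was 1.02, estimated on 142 complete probes (0.115 on 516 complete gene means). eBayes and Benjamini-Hochberg adjustment followed over 3644 probes, with a threshold of 0.05. The fit was also run on data simulated from its own covariance, with a common spread for all probes and large planted changes. That run cannot show how the fit fares on the spread of these data. The design text calls 3 of the 9 arrays technical replicates, so p-values may in part measure technical spread.

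Members, gene lists and tests were chosen with earlier results of these data known. All member probes are named whatever their values; neighbours are the 3 nearest probes, and lists name up to 4 genes, those listed on most arrays. Alternatives covered centring, covariance, the dye term, array numbers, the filter on missing values, unlisted values and leaving out each array. Same-numbered arrays' deviations correlated at -0.080 to 0.236 over 142 probes, so the numbers were not shown to pair samples. No sequences were used. Part of the strain label of the 3xTG mice is not reported here.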

Additional observations from a re-analysis of the deposited data

Results flagged for a closer look

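Fcrls had mean log2 ratios for 3xTG over WT of 2.01 at 12 months and -1.28 at 3 months (n = 2 arrays each), a difference of 3.29. It drew attention because every listed array lay above the array median at 12 months and below it at 3 months. Before centring the 3-month values were 0.64 and -1.39, on both sides of 0, and on array 2 at 3 months a ratio left out for its size alone would lie between 0.34 and 1.34, above the median. The limma test of this difference gave 2.57 ± 1.36 (SE) and an adjusted p of 0.730, which missed the threshold, and both arrays at 12 months carried the same 3xTG mouse.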

How the results depend on the processing

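The count of called probes was 0 in all 5 contrasts under each alternative but one: with arrays treated as independent, 56 probes were called for 3xTG over WT at 3 months and 66 for WT at 12 over 3 months, and no marker was among them. With the replicate block, 2482 probes could be fitted and 0 were called. Leaving out each array in turn gave 0 called probes throughout. The median of marker genes for 3xTG over WT at 12 months was -0.72 without centring and -1.29 against abundant transcripts, where all genes had -0.95 and -1.94. It ran from -0.86 to 0.99 as each array was left out. With age in WT it was 2.24 without centring and ran from 0.23 to 1.31 as each array was left out (1.31 without array 2), and at 3 months it ran from -0.84 to -0.23. Signs of uncalled fitted ratios turned in these cases. Against abundant transcripts, Tmem119 (-0.43) and Fcer1g (-0.95) turned at 3 months, Fcrls (-1.11), Olfml3 (-1.33) and Fcer1g (-1.28) at 12 months, and Olfml3 (0.66) with age. Without centring, Fcer1g (-0.39) turned at 12 months, and Fcrls (0.46) and Olfml3 (1.85) with age. With array numbers as a block, Tmem119 (-0.063) and Siglech (1.53) turned at 3 months. With age, Tmem119 (-0.39) and Olfml3 (0.41) turned with independent arrays, and Tmem119 (-0.22) and Olfml3 (0.29) with the variance ratio of gene means. The lowest adjusted p of any tested marker over these fits was 0.170. The cause was not tested. Signal over background could not be judged from ratios, and precision is limited by 3 arrays a comparison.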
